A study of Homo sapiens with 21 samples.

Results

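The 8 genes described here, XIAP, BIRC2, BIRC3, CFLAR, CASP8, FAS, TNFRSF10A and TNFRSF10B, encode receptors, switches and brakes of the extrinsic route to apoptosis. They were chosen by name from the 26475 genes of the count table, and all 8 had enough reads to be tested. RNA was sequenced from 21 libraries of the human melanoma line SK-MEL-147, which formed 7 groups of 3. The groups were untreated cells and cells given 1 of 6 compounds: JQ-1, which binds the BET bromodomain proteins; TP-472, which binds the bromodomains of BRD9 and BRD7; MS023, an inhibitor of type I arginine methyltransferases; GSK-591, an inhibitor of the arginine methyltransferase PRMT5; UNC0642, an inhibitor of the histone methyltransferases EHMT1 and EHMT2; and GSK-484, an inhibitor of the arginine deiminase PADI4. Every group was the same line in the same serum-containing medium, and the sources used here give no dose, time or vehicle. Since the labels do not call the replicates separate cultures, a p-value here reflects the spread among these libraries only, and that spread may be technical.

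Death receptors are surface proteins that carry an intracellular death domain. FAS binds FAS ligand, and TNFRSF10A and TNFRSF10B bind TRAIL, the product of TNFSF10. A bound receptor recruits the adaptor FADD and the initiator caspase CASP8, which becomes active when its molecules pair. CFLAR, a relative of CASP8 without protease activity, enters the same complex and holds that activation back. The inhibitor of apoptosis proteins act at other points: XIAP binds and blocks active caspases, while BIRC2 and BIRC3 are ubiquitin ligases that sit with TRAF proteins on TNF receptors and steer the signal towards NF-kB. BIRC3 and CFLAR are textbook NF-kB targets, and FAS and TNFRSF10B are textbook p53 targets.

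Each library held between 20978182 and 78776788 expected counts. After scaling, the counts of a gene varied between replicates with a common biological coefficient of variation of 5.09%, as edgeR estimates it. Levels are given as CPM, counts scaled to the library total after TMM normalization, and changes as log2 fold changes with their standard error (SE) from edgeR's quasi-likelihood test over 15062 genes. A gene was called where its Benjamini-Hochberg adjusted p was under 0.05. Of the melanocyte lineage markers, SOX10 lay at 349 to 603 CPM and MITF at 9.24 to 19 CPM, while MLANA, PMEL, TYR and DCT did not exceed 0.448 CPM in any library. AXL, a marker of undifferentiated melanoma, lay at 1770 to 2060 CPM. The 4 leukocyte markers summed to at most 1.03 CPM. The untreated libraries also stood apart in base composition: the slope of log2 CPM on transcript GC content, per 10 percentage points, was -0.138 ± 0.0451 (SD, n = 3) in them and between -0.0249 and 0.081 in the means of the 6 treated groups. The changes below are therefore given also from a fit in which each library's GC trend was removed, and from that fit with the other treated groups in place of untreated cells.

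Gene positions follow the GENCODE 29 models of build hg38. BIRC3 (chr11:102317450-102339403) and BIRC2 (chr11:102347211-102378670) are neighbouring paralogs on the plus strand, 7.8 kb apart. CFLAR (chr2:201116104-201176687) and CASP8 (chr2:201233443-201287711) lie on the plus strand of chromosome 2 with CASP10 (chr2:201182881-201229406), another initiator caspase, between them. XIAP (chrX:123859724-123913979) and FAS (chr10:88990582-89015785) are also on the plus strand. BIRC3, BIRC2 and XIAP transcripts have a low GC content of 37.4%, 39.7% and 40.2%, where the lowest 10% of the genes tested lie under 39.8% and the median is 49.1%. The other 5 lie between 42.1% and 51.7%.

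The stretches before the start sites of these genes are shown for the 3 inhibitor of apoptosis genes, because the neighbours BIRC3 and BIRC2 changed by very different amounts with JQ-1, and for the one short CFLAR stretch that holds a match to the NF-kB motif. They come from RefSeq on GRCh38.p14, plus strand, and capitals mark a match to the NF-kB motif on either strand. BIRC3 is shown from chr11:102317234-102317449, BIRC2 from chr11:102346964-102347210, XIAP from chrX:123859458-123859707 and the CFLAR site from chr2:201118609-201118638.
BIRC3: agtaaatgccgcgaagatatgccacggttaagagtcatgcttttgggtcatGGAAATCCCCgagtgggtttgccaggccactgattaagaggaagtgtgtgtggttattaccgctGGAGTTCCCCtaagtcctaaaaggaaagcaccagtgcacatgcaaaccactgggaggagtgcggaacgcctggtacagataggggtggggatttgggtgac
BIRC2: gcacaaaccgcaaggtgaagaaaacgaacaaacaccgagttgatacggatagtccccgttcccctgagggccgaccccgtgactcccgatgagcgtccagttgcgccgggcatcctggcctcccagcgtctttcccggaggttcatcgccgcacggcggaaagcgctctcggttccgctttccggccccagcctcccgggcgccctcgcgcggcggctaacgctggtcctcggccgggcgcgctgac
XIAP: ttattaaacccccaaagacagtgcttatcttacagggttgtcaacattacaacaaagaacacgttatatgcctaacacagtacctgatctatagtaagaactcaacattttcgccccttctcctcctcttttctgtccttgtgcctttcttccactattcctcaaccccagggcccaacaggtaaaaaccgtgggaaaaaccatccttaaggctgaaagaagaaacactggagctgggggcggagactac
CFLAR site: cgcggggggcGGGGAATTCCgcagacagga

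The BIRC3 window held 2 matches to the NF-kB motif, beginning 199 and 135 bases before the RefSeq start site. That window runs to chr11:102317483, while the letters shown stop before the first base of a GENCODE exon, at 102317450. The BIRC2 letters are cut in the same way. In the 250 bases before a start, 5.21% of 35116 RefSeq windows held at least 1 match and 0.635% held 2 or more. No match was found in the 2 windows of BIRC2 or the 3 windows of XIAP, which says only that these letters are not there. The CFLAR match lay in 1 of its 4 windows, 97 bases before that start, and FAS had a match in 1 of its 3 windows, 157 bases before the start. Both of these matches lie inside annotated GENCODE exons, the CFLAR match in an exon of CFLAR and the FAS match in exons of FAS and ACTA2, while neither BIRC3 match lies in an exon. The AP-1 motif (TGACTCA or TGAGTCA, which are each other's reverse strand) was found in 1 of the 3 CASP8 windows and in none of the other 15 windows matched to the 8 genes, against 4.2% of all windows. Promoter entries were matched for 6 of the 8 genes, 16 windows in all. A match is a description of the sequence and not a measurement of binding.

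Levels between genes are compared per kb of exon (CPM divided by the length of all annotated exons). In untreated cells TNFRSF10B was the highest at 59.0 ± 0.601 CPM per kb (SD, n = 3), followed by BIRC2 at 17.9 ± 0.469, XIAP at 9.74 ± 0.609 and BIRC3 at 6.94 ± 0.398. The other 4 lay close together between 1.53 ± 0.0964 (FAS) and 2.06 ± 0.0701 (CFLAR). With the longest transcript in place of all exons the first 4 kept their order and the last 4 changed theirs, since CFLAR then lay at 3.16 and CASP8 at 3.99 CPM per kb. The more abundant of the 2 TRAIL receptor transcripts was thus TNFRSF10B, since TNFRSF10A lay at 1.94 ± 0.225 CPM per kb.

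The first comparison, of JQ-1 with untreated cells, addresses the effect of a BET inhibitor on these genes. All 8 genes fell with JQ-1, from 1.34-fold for TNFRSF10B to 5.88-fold for FAS. FAS, CFLAR and BIRC3 fell the most, all 3 by more than 4-fold, CASP8 fell by 2.31-fold, and XIAP, BIRC2 and TNFRSF10A by 1.82-fold to 1.91-fold. The count stands beside a wide background: 73.3% of all genes tested were called with JQ-1 and 37.6% were called lower, and in 38.0% the 3 JQ-1 libraries lay below all 3 untreated ones. The median of the 8 genes was -1.07 on the log2 scale, against -0.00637 over all genes tested and an absolute median of 0.583 over the genes called.

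**Figure D1:**
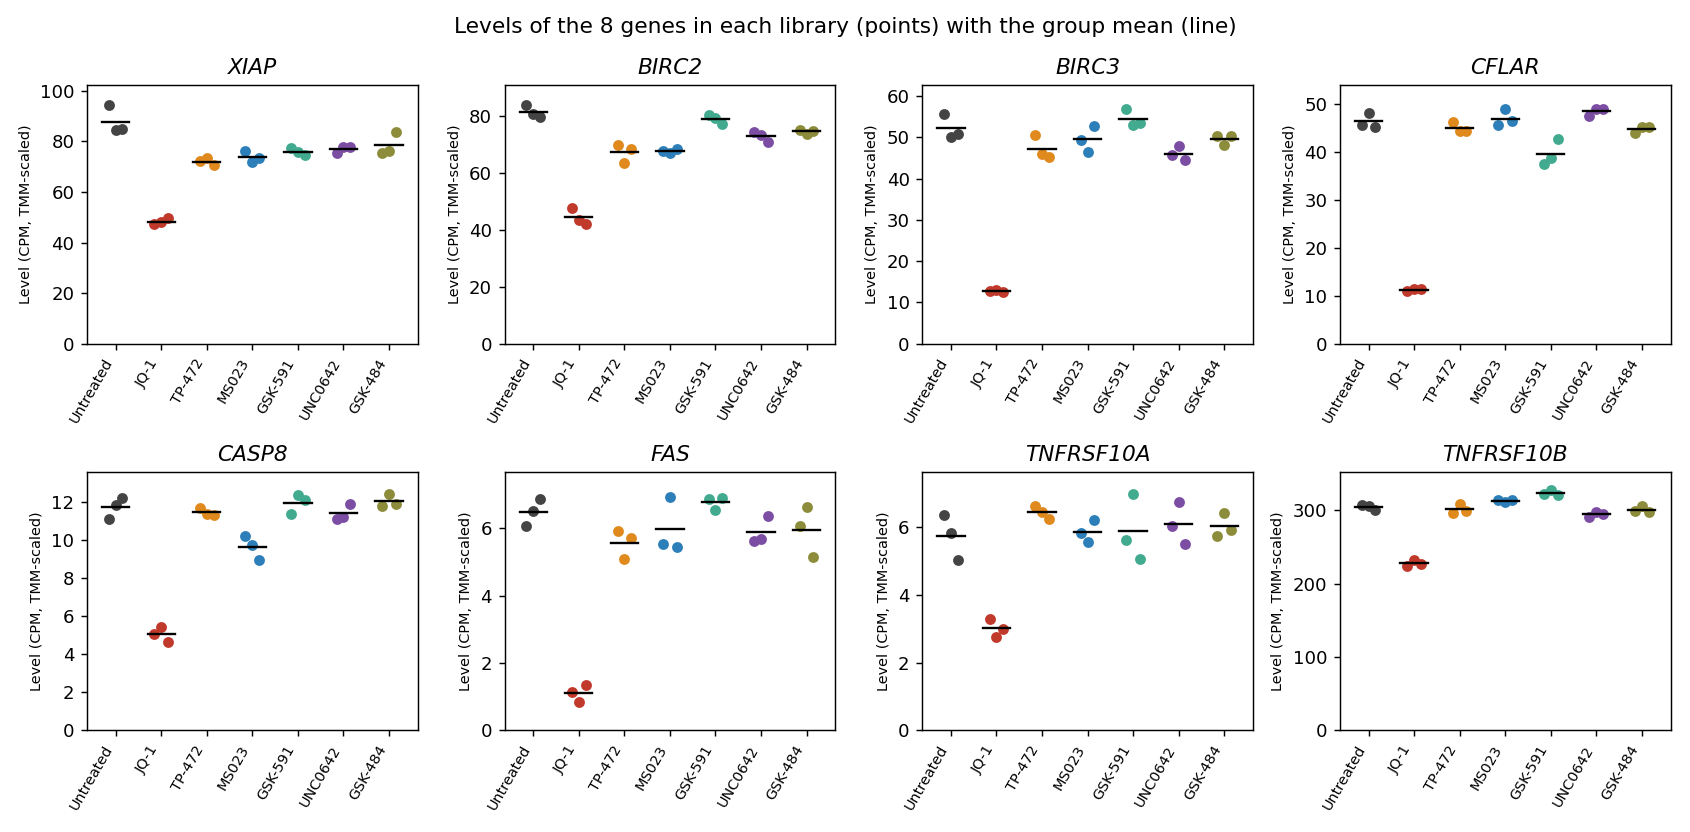
Level of each gene (vertical axes, CPM after TMM scaling, each from 0) in every library (points) of the 7 groups (horizontal axis), with the group mean as a line. In each of the 8 panels the 3 JQ-1 libraries lie below all 18 others, most widely for FAS, CFLAR and BIRC3.

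Among the receptors, FAS stood at 6.07, 6.53 and 6.88 CPM in the 3 untreated libraries and at 1.16, 0.839 and 1.34 CPM with JQ-1. The JQ-1 values rest on 30 to 42 counts per library, and even the highest lay far below the lowest untreated one. The change was -2.55 (SE 0.148, edgeR adjusted p = 3.17e-13), -2.32 with the GC trend removed and -2.34 with the other treated groups as the reference as well. FAS overlaps ACTA2 on the other strand. ACTA2 averaged only 0.994 to 1.77 CPM over the groups, 1.55 with JQ-1 and 1.32 in untreated cells. The sources used here do not say whether the counting used strand.

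The TRAIL receptor genes TNFRSF10A (chr8:23190452-23225126) and TNFRSF10B (chr8:23020133-23069179) lie on the minus strand of chromosome 8. TNFRSF10A stood at 6.33, 5.82 and 5.01 CPM in untreated cells and at 3.28, 2.74 and 2.99 CPM with JQ-1. The groups did not overlap, and the fall was -0.93 (SE 0.121, edgeR adjusted p = 3.42e-07). TNFRSF10B, the more abundant TRAIL receptor, stood at 306, 306 and 301 CPM in untreated cells and at 224, 232 and 227 CPM with JQ-1. These values also lay apart, with less than 10 CPM of spread within each group, and the change of -0.42 (SE 0.0284, edgeR adjusted p = 5e-12) was the smallest of the 8. RHOBTB2, which overlaps TNFRSF10B on the other strand, averaged 12.9 CPM in untreated cells and 16.5 CPM with JQ-1. So 2 receptors for the same ligand and 1 for FAS ligand were all lower, and the abundant one kept 74.8% of its untreated level while FAS kept 17%.

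Of the 2 genes at the receptor complex, CASP8, the initiator caspase, stood at 11.1, 11.8 and 12.2 CPM in untreated cells and at 5.07, 5.43 and 4.64 CPM with JQ-1. All JQ-1 libraries were below the untreated ones, a change of -1.21 (SE 0.0729, edgeR adjusted p = 6.64e-13). CFLAR, its inhibitor, stood at 45.7, 48.2 and 45.2 CPM in untreated cells and at 11.0, 11.4 and 11.3 CPM with JQ-1. It fell to 24.3% of the untreated level (log2 change -2.04, SE 0.052, GC trend removed -1.92). CFLAR had fractional expected counts in 21 of 21 libraries, so part of its reads was shared with other annotated sequence and its level is less certain than that of XIAP, BIRC2, BIRC3 and FAS, which had none. Its antisense gene CFLAR-AS1 reached at most 11.69 counts in any library.

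Of the inhibitor of apoptosis genes, BIRC3 stood at 55.6, 50.2 and 50.7 CPM in untreated cells and at 12.7, 13.1 and 12.4 CPM with JQ-1. Its change of -2.03 (SE 0.0608, edgeR adjusted p = 1.77e-18) was -1.75 with the GC trend removed. The neighbouring BIRC2 stood at 83.7, 80.6 and 79.6 CPM in untreated cells and at 47.5, 43.4 and 42.1 CPM with JQ-1, a change of -0.87 (SE 0.0442). XIAP, which blocks active caspases directly, stood at 94.2, 84.6 and 84.9 CPM in untreated cells and at 47.4, 48.0 and 49.5 CPM with JQ-1, a change of -0.86 (SE 0.0463). None of the 3 genes had overlapping groups. The changes of XIAP and BIRC2, 2 of the low-GC transcripts, were -0.62 and -0.63 with the GC trend removed, and were called there too.

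In the 6 refits that each left out 1 library, and in every other alternative tried, all 8 genes were lower and called with JQ-1. Of all genes tested, 32.1% were called lower with the GC trend removed and 34.3% with the other treated groups as the reference as well. Melanocyte lineage markers summed to 609 to 622 CPM with JQ-1 and to 363 to 385 CPM in untreated cells. Most of that sum was SOX10, which lay at 349 to 603 CPM over all libraries. Undifferentiated melanoma markers summed to 2440 to 2470 CPM with JQ-1 and to 2140 to 2190 CPM in untreated cells. AXL, at 1770 to 2060 CPM over all libraries, was most of this sum, which says little of the other genes in it. Fibroblast markers (4 genes, DCN at 0) summed to 6.17 to 7.25 CPM with JQ-1 and to 8.83 to 9.8 CPM in untreated cells. Leukocyte markers summed to 0.0344 to 0.112 and to 0.536 to 0.748 CPM, in the same order. The part of these markers in the falls was not tested. In bulk RNA, fewer cells of a type and less RNA per cell cannot be told apart.

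TP-472 binds bromodomains of another family, so JQ-1 was also compared with it directly. Both comparisons share the 3 JQ-1 libraries. All 8 genes were lower with JQ-1 than with TP-472, with a median of -1.13, where 72.3% of genes were called and 37.5% called lower. In 39.5% of genes the JQ-1 libraries lay below all TP-472 ones. CFLAR stood at 46.3, 44.4 and 44.3 CPM with TP-472, all above the 11.0 to 11.4 CPM of JQ-1, a difference of -2.0 (SE 0.0521, edgeR adjusted p = 1.62e-19). BIRC3, at 50.6, 46.0 and 45.2 CPM with TP-472, differed by -1.89 (SE 0.0611). FAS differed by -2.33, CASP8 by -1.17, TNFRSF10A by -1.09, BIRC2 by -0.60, XIAP by -0.58 and TNFRSF10B by -0.40. The fitted change was smaller against TP-472 than against untreated cells for 7 of the 8 genes and larger for TNFRSF10A, and the gap between the 2 changes was not tested. XIAP, BIRC2 and BIRC3 were themselves called lower with TP-472 than in untreated cells.

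The other 5 compounds, each against untreated cells, gave 40 pairs of gene and compound, all with changes between -0.29 and 0.16. These 5 comparisons and that of JQ-1 share the same 3 untreated libraries. Of the 40 pairs, 13 were called lower, 1 higher and 26 were not called. With the GC trend removed 2 were called lower and 2 higher, and with the other treated groups as the reference as well, 5 lower and 5 higher. Per compound, 3 of the 8 genes were called with TP-472, where 31.8% of all genes were called and 14.5% called lower. MS023 also gave 3, beside 42.6% of all genes called and 20.6% called lower, and GSK-591 gave 3, beside 32.9% and 14.8%. UNC0642 gave 3, beside 16.3% and 7.54%, and GSK-484 gave 2, beside 19.1% and 7.66%. With the GC trend removed the share of all genes called was 11.8% with TP-472, 16.9% with MS023, 13.1% with GSK-591, 2.84% with UNC0642 and 0.247% with GSK-484. With the other treated groups as the reference as well it was 11.8%, 14.4%, 10.9%, 27.7% and 0.240%, in the same order. CFLAR with GSK-591 was the one pair whose call and direction held in each of the 3 fits.

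**Figure D2:**
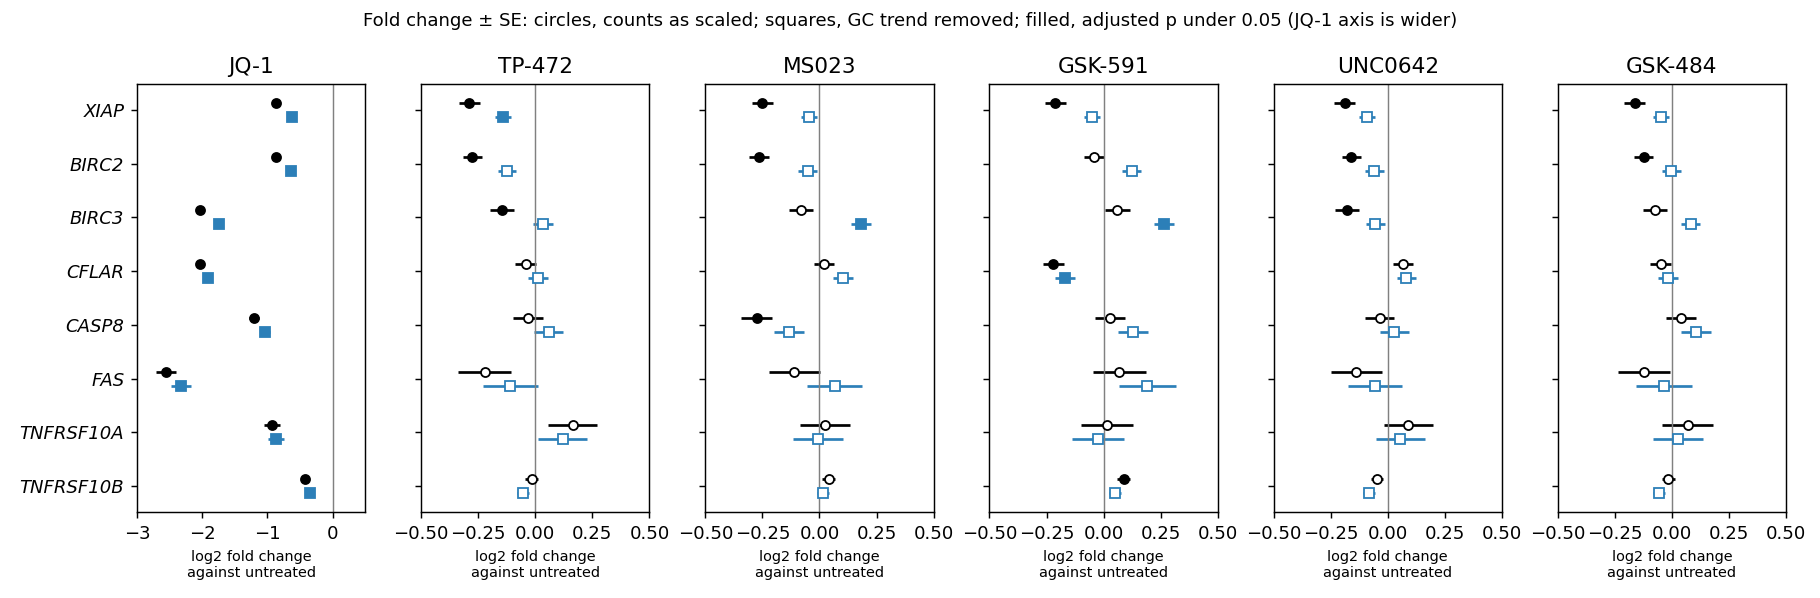
Log2 fold change against untreated cells (horizontal axes) of the 8 genes (rows) for each compound, with bars of 1 SE, as circles from the scaled counts and as squares after removal of the GC trend. Filled symbols have an adjusted p under 0.05. With JQ-1, on a wider axis, all symbols are filled and left of 0, while most squares of XIAP, BIRC2 and BIRC3 with the other 5 compounds are open and closer to 0 than, or right of, the circles.

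CFLAR stood at 37.6, 38.7 and 42.7 CPM with GSK-591, the PRMT5 inhibitor, against 45.2 to 48.2 CPM in untreated cells. The groups did not overlap, and the same held in the lower direction for 19.2% of all genes with GSK-591. GSK-591 was also the only group besides JQ-1 whose CFLAR libraries all lay below those of the other 5 groups. The fall was -0.22 (SE 0.046, edgeR adjusted p = 0.000939), -0.17 (adjusted p = 0.0163) with the GC trend removed and -0.21 (adjusted p = 0.000544) with the other treated groups as the reference as well. With GSK-591, 32.9% of all genes were called against untreated cells, 14.8% lower, and 1.85% were called lower in all 3 fits. With the other 4 compounds, CFLAR lay between -0.05 (GSK-484) and 0.07 (UNC0642), and was not called against untreated cells. With the GC trend removed and the other treated groups as the reference it was called higher with MS023 (0.13, edgeR adjusted p = 0.0168) and UNC0642 (0.10, adjusted p = 0.0322). That reference includes GSK-591, where CFLAR was lower. Against untreated cells with the GC trend removed, edgeR called neither (0.10, adjusted p = 0.111, and 0.08, adjusted p = 0.296).

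XIAP was called lower with each of the 5 compounds. It stood at 72.1, 73.4 and 70.6 CPM with TP-472 (-0.29, SE 0.0448, edgeR adjusted p = 0.000101), and the changes with the others ran to -0.16 with GSK-484. The untreated libraries, at 94.2, 84.6 and 84.9 CPM, were above every treated one, and GSK-484 replicate 3 came closest at 83.8 CPM. Such separation held, by compound, for 11.3% (GSK-484) to 23.2% (MS023) of all genes. After removal of the GC trend the XIAP changes lay between -0.14 and -0.04. Only that with TP-472 was then called (adjusted p = 0.0132), and with the other treated groups as the reference as well it was -0.08 (adjusted p = 0.0665). XIAP transcripts have a GC content of 40.2%, under the median of 49.1%, and the part of the GC trend in its small falls was not tested beyond these fits.

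BIRC2 was called lower with TP-472 (-0.28), MS023 (-0.26), UNC0642 (-0.16) and GSK-484 (-0.12), but not with GSK-591 (-0.04, edgeR adjusted p = 0.48). Its levels were 69.8, 63.3 and 68.4 CPM with TP-472 and 67.8, 67.0 and 68.3 CPM with MS023, all below the untreated 79.6 to 83.7 CPM. Such separation downward held for 18.5% of all genes with TP-472 and 23.2% with MS023. With the GC trend removed none of the 4 was called (TP-472 -0.12, edgeR adjusted p = 0.054). With the other treated groups as the reference as well, BIRC2 was lower with TP-472 (-0.13, adjusted p = 0.0149) and higher with GSK-591 (0.18, adjusted p = 0.00104). In the order of its levels, untreated and GSK-591 overlapped at the top, GSK-484 and UNC0642 overlapped next, and MS023 and TP-472 overlapped below them, above JQ-1.

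BIRC3 was called lower with UNC0642 and with TP-472. With UNC0642 it stood at 45.6, 47.8 and 44.6 CPM, all below the untreated 50.2 to 55.6 CPM, a change of -0.18 (SE 0.0524, edgeR adjusted p = 0.0221). It was -0.05 with the GC trend removed and -0.19 (adjusted p = 0.000396) with the other treated groups as the reference as well. With TP-472 the groups overlapped, since replicate 1 stood at 50.6 CPM, and the change of -0.14 (edgeR adjusted p = 0.0409) became 0.03 with the GC trend removed. In that fit BIRC3 was instead called higher with MS023 (0.18, adjusted p = 0.0056) and GSK-591 (0.26, adjusted p = 0.000508), where it was not called in the scaled counts (-0.08 and 0.06). With the other treated groups as the reference as well it was 0.20 with GSK-591 (adjusted p = 0.000513). Over the 3 fits the sign of the BIRC3 difference turned for TP-472, MS023 and GSK-484, and stayed negative with UNC0642 and positive with GSK-591. Neighbouring groups overlapped through the whole order of its levels except for JQ-1.

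CASP8 was called lower with MS023 alone. It stood at 10.2, 9.74 and 8.96 CPM there against 11.1, 11.8 and 12.2 CPM in untreated cells, and the 3 MS023 libraries were below those of every group but JQ-1. Separation downward from untreated cells held for 23.2% of all genes with MS023. The change was -0.28 (SE 0.066, edgeR adjusted p = 0.00183), where 42.6% of genes were called with MS023 and 20.6% lower. It was -0.13 (adjusted p = 0.174) with the GC trend removed and -0.21 (adjusted p = 0.00868) with the other treated groups as the reference as well. With the other 4 compounds CASP8 lay between -0.04 and 0.04.

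The death receptors had 1 call with these 5 compounds, TNFRSF10B with GSK-591. FAS was called with none of them, with changes from -0.22 (TP-472, SE 0.114) to 0.07 (GSK-591, SE 0.116), and TNFRSF10A with none, with changes from 0.02 (GSK-591, SE 0.114) to 0.16 (TP-472, SE 0.109). At 5 to 7 CPM their standard errors were well above the 0.04 to 0.05 of XIAP, BIRC2 and CFLAR. Changes of the size seen in those genes with these 5 compounds were therefore harder to detect in FAS and TNFRSF10A. TNFRSF10B stood at 322, 327 and 321 CPM with GSK-591, all above the 301 to 306 CPM of untreated cells. It rose by 0.09 (SE 0.0282, edgeR adjusted p = 0.0195), where 18.1% of genes were called higher and 22.8% lay above untreated cells without overlap. It was 0.05 (adjusted p = 0.204) with the GC trend removed and 0.10 (adjusted p = 0.00386) with the other treated groups as the reference as well. In that last fit it was also called lower with UNC0642 (-0.07, adjusted p = 0.016), where it stood at 291 to 297 CPM. Untreated replicate 1 had the steepest GC slope (-0.188). Without it, edgeR called no gene of the full set described here, receptor or not, with UNC0642 or GSK-484. At an unadjusted p under 0.05 edgeR gave 3 genes of that full set with UNC0642 and 2 with GSK-484. Of all 15254 genes tested in that refit, 2026 were called with UNC0642 and 924 with GSK-484.

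MS023 and GSK-591 inhibit different classes of arginine methyltransferase and were compared with each other, without the untreated libraries. Of the 8 genes, 3 were called, where 9.89% of all genes were called, 4.46% higher and 5.43% lower with MS023. CFLAR was higher with MS023, at 45.6, 48.9 and 46.4 CPM against 37.6, 38.7 and 42.7 CPM (difference 0.24, SE 0.046, edgeR adjusted p = 0.00191). CASP8 was lower with MS023, at 10.2, 9.74 and 8.96 CPM against 11.3, 12.4 and 12.1 CPM (-0.30, SE 0.0681, edgeR adjusted p = 0.00646). BIRC2 was lower with MS023, at 67.8, 67.0 and 68.3 CPM against 80.2, 79.2 and 77.3 CPM (-0.22, SE 0.0434, edgeR adjusted p = 0.00248). None of the 3 overlapped between the groups, which held for 29.5% of all genes. With the GC trend removed the differences were 0.27, -0.26 and -0.17, all called, as were 10.4% of all genes. So the caspase and its inhibitor differed in opposite directions between the 2 compounds. XIAP differed by -0.04, TNFRSF10A by 0.01, TNFRSF10B by -0.05, BIRC3 by -0.14 and FAS by -0.18, none of them called.

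The ratio of 2 genes within a library does not depend on how libraries are scaled, and 4 such ratios were taken. They come from counts without removal of the GC trend, and the part of that trend in them was not tested. CFLAR had 4.12, 4.08 and 3.71 counts per CASP8 count in the untreated libraries and 2.18, 2.11 and 2.44 with JQ-1. The inhibitor was thus lower relative to the caspase in all 3 JQ-1 libraries than in any other library. MS023 lay at the other end with 4.47, 5.02 and 5.18 counts, above every untreated library, and GSK-591 at 3.32, 3.14 and 3.54, below every untreated library. TP-472 (mean 3.94) and GSK-484 (3.73) overlapped the untreated range, and so did UNC0642, with 1 library inside it at 4.12 and the others above it at 4.28 and 4.39. An exact permutation test of 3 libraries against 3 cannot give less than 0.1, so these ratios are described without a test.

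**Figure D3:**
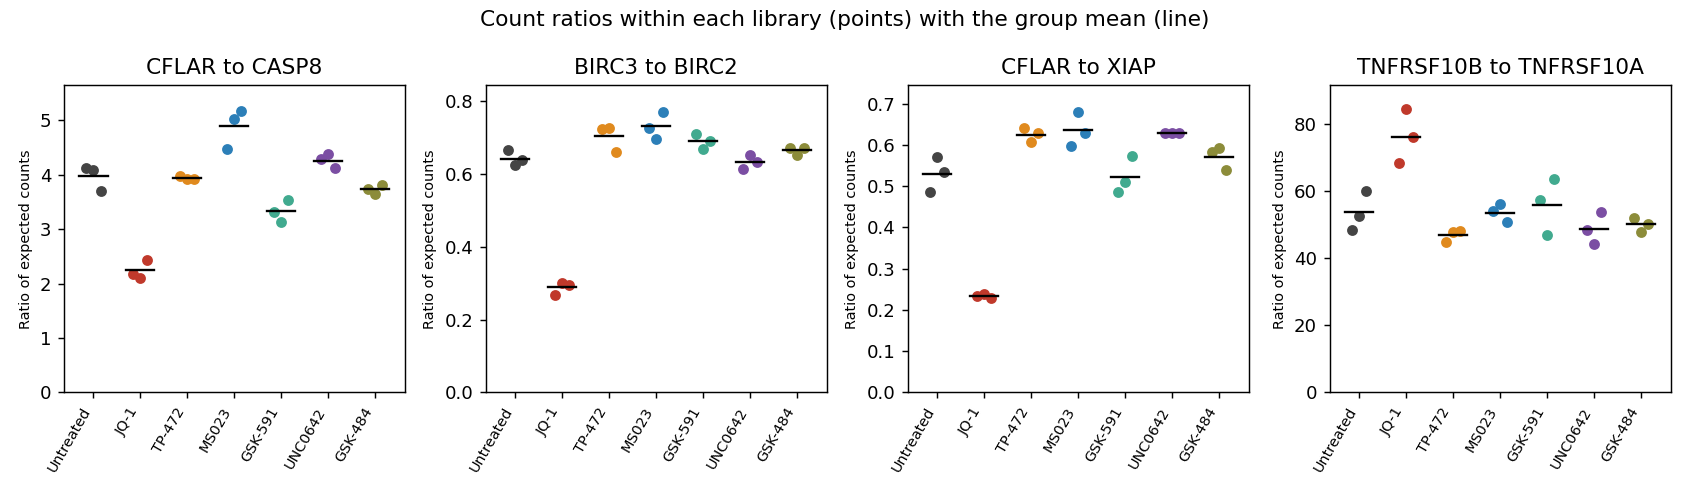
Ratio of expected counts of 2 genes (vertical axes, from 0) within each library (points), with the group mean (line), for the 7 groups. The 3 JQ-1 libraries are the lowest for CFLAR to CASP8, BIRC3 to BIRC2 and CFLAR to XIAP and the highest for TNFRSF10B to TNFRSF10A.

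BIRC3 had 0.665, 0.623 and 0.637 counts per BIRC2 count in untreated libraries and 0.268, 0.302 and 0.295 with JQ-1. The group means of the other 5 compounds lay between 0.632 and 0.731, and all libraries with MS023 and GSK-591 were above the untreated ones. CFLAR relative to XIAP averaged 0.529 ± 0.0426 (SD, n = 3) in untreated cells and 0.233 ± 0.00507 with JQ-1. With TP-472 (mean 0.625), MS023 (0.636) and UNC0642 (0.629) every library lay above the highest untreated one at 0.57, while GSK-591 and GSK-484 overlapped the untreated range. CFLAR and XIAP transcripts differ in GC content (46.7% and 40.2%). After removal of the GC trend, XIAP changed by -0.14, -0.04 and -0.09 with TP-472, MS023 and UNC0642. CFLAR changed by 0.01, 0.10 and 0.08 there, in the same order. TNFRSF10B relative to TNFRSF10A rose the other way, from a mean of 53.6 to 76.2 (68.3 to 84.4) with JQ-1. The rarer receptor fell by the larger factor, 1.91-fold against 1.34-fold. The other 5 compounds averaged 46.9 to 56.0, and only TP-472, the lowest, did not overlap the untreated range.

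A further 70 genes of the same pathway, sorted by role, moved in both directions with JQ-1. Of the 58 tested, 26 fell, 21 rose and 11 were not called, with a median of -0.09, where 37.6% of all genes were called lower and 35.7% higher. After removal of the GC trend 25 fell and 25 rose, beside 32.1% and 43.3% of all genes. The lists were drawn up with results of these data known, and the counts are descriptions. The 12 not tested, among them FASLG (the FAS ligand), TNFRSF10D (a decoy TRAIL receptor) and RIPK3 (a necroptosis kinase), did not exceed 9 counts in any library.

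Of the ligands, 4 of 8 were tested and 3 fell. TNFSF12, the ligand of TNFRSF12A, fell from 4.79 to 0.396 CPM (-3.55, SE 0.197, edgeR adjusted p = 1.41e-13). It had fractional counts in 9 of 21 libraries. The other 2 that fell, TNFSF10 (TRAIL) and TNFSF15, were under 1 CPM in both groups, and TNFSF15 had no counts with JQ-1. Of 10 other death and decoy receptors 6 fell, 3 rose and 1 was not called. TNFRSF11B, a soluble decoy for TRAIL, fell from 3.66 to 0.507 CPM (-2.86), TNFRSF1B, a TNF receptor, fell by 1.15 on the log2 scale, and NGFR, a receptor of neurotrophins, rose from 116.5 to 303.4 CPM (1.38, SE 0.0414).

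Of 21 adaptors and ubiquitin regulators of the receptor complexes, 7 fell, 9 rose and 5 were not called. TRAF1, a partner of TRAF2, BIRC2 and BIRC3, fell from 14.6 to 2.35 CPM (-2.63, SE 0.0891, edgeR adjusted p = 1.58e-17). TRAF5 fell by 1.37 and CRADD, an adaptor of CASP2, by 0.91 on the log2 scale. FADD, which brings CASP8 to the receptors, averaged 49.9 CPM in untreated cells and 46.7 CPM with JQ-1 and was not called (-0.09, edgeR adjusted p = 0.123; -0.11 and adjusted p = 0.023 with the GC trend removed). RIPK1, a kinase of the TNF receptor complex, rose (0.65). FADD and RIPK1 were chosen after their values were seen.

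Of 8 other caspases 5 fell, 2 rose and 1 was not called. CASP10, the gene between CFLAR and CASP8, fell from 2.0 to 0.210 CPM (-3.19, SE 0.285, edgeR adjusted p = 7.2e-10). All 3 genes of this stretch of chromosome 2 were therefore lower with JQ-1, by unequal amounts. CASP4, an inflammatory caspase, fell by 1.68 on the log2 scale.

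Among other IAP family genes, BIRC5, which is best known for its part in cell division, fell from 123.1 to 84.8 CPM (-0.54), NAIP, an inflammasome sensor, rose (0.48), and BIRC6 was not called. NAIP had fractional counts in 11 of 21 libraries. Of the 3 IAP antagonists tested, HTRA2 (0.78, SE 0.0594) and DIABLO (0.23, SE 0.0456), both mitochondrial proteins that bind IAP proteins once released, rose, and SEPT4 was not called. Of 8 genes of the apoptosome and of execution 3 fell and 4 rose. BID, which active CASP8 cuts to engage mitochondria, fell by 0.56, DFFB, the nuclease that cuts DNA between nucleosomes, fell by 1.34, and ENDOG, a mitochondrial nuclease with fractional counts in all 21 libraries, rose (0.74). MLKL, the pore protein of necroptosis, fell from 10.9 to 1.59 CPM (-2.78, SE 0.121).

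**Figure D4:**
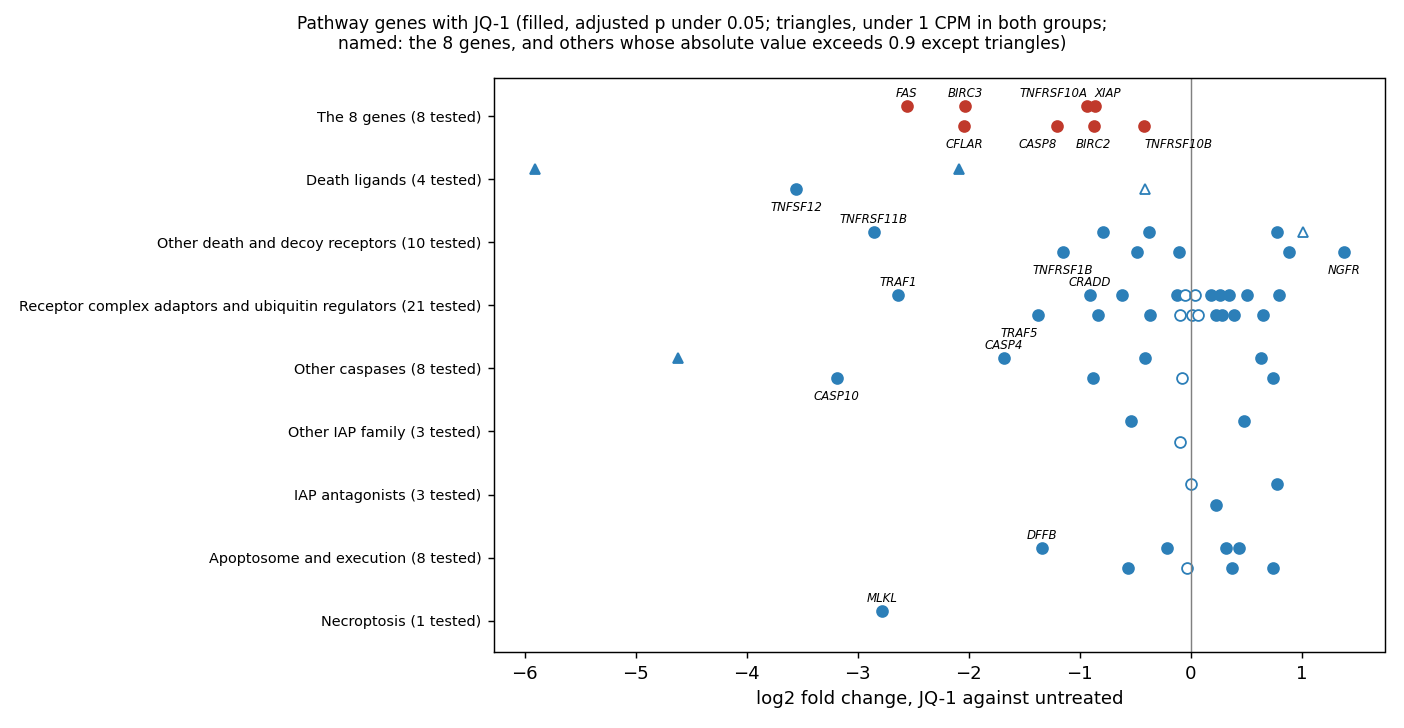
Log2 fold change with JQ-1 against untreated cells (horizontal axis) of the 8 genes (red) and of the other pathway genes (blue) by role (rows), filled where the adjusted p was under 0.05. All 8 genes lie left of 0, as do the 4 death ligands and MLKL, the one necroptosis gene. The IAP antagonists lie at or right of 0, and the other 5 lists have genes on both sides. Triangles are genes under 1 CPM in both groups, and the leftmost, TNFSF15, had no counts with JQ-1, so its fitted value is not a measure of size.

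With TP-472 the same 58 genes gave 16 calls higher and 9 lower, where 17.3% of all genes were called higher and 14.5% lower. MS023 gave 18 higher and 9 lower, beside 22.0% and 20.6% of all genes. GSK-591 gave 16 higher and 9 lower, beside 18.1% and 14.8%. UNC0642 gave 10 higher and 3 lower, beside 8.71% and 7.54%, and GSK-484 gave 13 higher and 6 lower, beside 11.4% and 7.66%. With the GC trend removed the counts became 4 and 5, 10 and 1, 2 and 2, 2 and 0, and 0 and 0, where 11.8%, 16.9%, 13.1%, 2.84% and 0.247% of all genes were called in either direction. At an unadjusted p under 0.05 edgeR gave 12 of the 58 with GSK-484 in that fit.

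Likeness between genes was measured as the root mean square difference of their group means, in log2 CPM centred over the 7 groups, against 12841 other genes with a mean of at least 1 CPM. Among the 8 genes XIAP and BIRC2 were the most alike (0.058) and FAS and TNFRSF10B the least (0.70). The nearest genes to XIAP were NCEH1 (0.021), TMX3 (0.026) and MCL1 (0.032), the last of which blocks the mitochondrial route to apoptosis. The nearest to BIRC2 were PTGFR, MAML2 and HOTAIRM1, and to BIRC3 they were VEGFC (0.04), FST and IFIT3. CFLAR was nearest to TMEM71 (0.04), RASSF2 and IGF2BP1, and CASP8 to MLLT11, ZAK and FAXC. FAS was nearest to ANO1-AS2, HOXA4 and TGFA, TNFRSF10A to NME6, GAR1 and FEN1, and TNFRSF10B to SH3KBP1 (0.018), RPN1 and EIF2A. The measure covers 7 group means and is dominated by JQ-1, and it is given as a description.

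In the order of levels, JQ-1 was the lowest group for each of the 8 genes and overlapped no other. By mean, untreated cells were the highest group for XIAP and BIRC2, GSK-591 for BIRC3, FAS and TNFRSF10B, UNC0642 for CFLAR, GSK-484 for CASP8 and TP-472 for TNFRSF10A. Only for XIAP and TNFRSF10B did the highest group not overlap the next. For FAS and TNFRSF10A every neighbouring pair among the 6 groups above JQ-1 overlapped. For TNFRSF10B the order GSK-591, MS023, untreated was without overlap, and untreated, TP-472 and GSK-484 overlapped. UNC0642, at 291 to 297 CPM, lay below untreated cells and GSK-484 but overlapped TP-472, at 296 to 308 CPM.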

How the data were processed

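The authors deposited a table of RSEM expected counts for 26475 genes in 21 libraries, 1 column per library. Per the submitters' processing notes the tools were RSEM 1.2.15 and Bowtie2 2.1.0, on build hg38. The sources used here give no annotation, strand setting or filter. Expected counts were rounded, genes with few counts were dropped by edgeR 4.0.16 (filterByExpr, at least 10 counts and 15 in total), and the rest were scaled by TMM and fitted over all 21 libraries with group as the only term (two-sided quasi-likelihood test, 15062 genes, Benjamini-Hochberg adjustment, threshold 0.05, fold change prior count 0.125). SE is the absolute log2 fold change divided by the square root of F. The GC trend was removed per library by loess (span 0.3, prior count 2, 4 iterations) on GENCODE 29 transcript GC, known for 14566 genes (96.7%). Reference groups in the third fit were the other treated groups except JQ-1 (the other 5 for JQ-1). A change in a reference group therefore also moves the result of the compound compared with it. The members, lists and alternatives were chosen with earlier results of these data known. Named pathway genes were, per list, up to 3 called genes with the largest change and at least 1 CPM in either group; likeness named 3 genes per member. Some genes that meet the rule are not reported here. The text describes JQ-1 by this rule and the other compounds by counts. The fit was tested on simulated data. Same-numbered libraries were not correlated, so replicate numbers were not used as pairs. Tools were R 4.3.3, Python 3.11.15, DESeq2 1.42.0 and matplotlib 3.10.9.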

Additional observations from a re-analysis of the deposited data

How the results depend on the processing

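DESeq2, RLE scaling, leaving out ribosomal RNA genes and a replicate block each left all 64 pairs of gene and comparison with the same direction and call. Replicate numbers did not pair the libraries: same-numbered libraries correlated at -0.16 to 0.137 (63 pairs, other pairs -0.14 to 0.151), 4 of 21 libraries were nearest to their own number, and with the replicate block 11000 genes were called with JQ-1 against 11037 without it. Total-count scaling moved the median of all genes with JQ-1 from -0.00637 to -0.149 and GC removal moved it to 0.0929, with all 8 genes below it each time. Under total-count scaling the calls over all genes, higher and lower, went from 5377 and 5660 to 4089 and 6884 with JQ-1, from 3313 and 3098 to 2547 and 3994 with MS023, from 2728 and 2224 to 1574 and 3327 with GSK-591, from 1312 and 1136 to 694 and 1644 with UNC0642, and from 1718 and 1154 to 1044 and 1488 with GSK-484.

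The number of the 8 genes called against untreated cells, 3 with TP-472, MS023 and UNC0642 and 2 with GSK-484, became 1, 1, 0 and 0 with the GC trend removed (edgeR; at an unadjusted p under 0.05, 2 with UNC0642 and 1 with GSK-484; DESeq2 without GC removal called 3 and 2). With MS023 the gene called after GC removal was BIRC3, higher (0.18, edgeR adjusted p = 0.0056), while XIAP, BIRC2 and CASP8 were no longer called. The number became 1 with TP-472 and 0 with GSK-484 with other treated groups as the reference, with or without GC removal, and 0 with GSK-484 in the fit of the 2 groups alone, where 9 genes in all were called instead of 2872. With each library left out in turn it was 8 to 8 for JQ-1 against untreated and against TP-472, 2 to 3 for TP-472 and GSK-591, 3 to 3 for MS023 and for MS023 against GSK-591, 0 to 3 for UNC0642 (0 without untreated replicate 1, 1 without UNC0642 replicate 3) and 0 to 2 for GSK-484 (0 without untreated replicate 1, GSK-484 replicate 1 or GSK-484 replicate 2, and 1 without untreated replicate 2 or GSK-484 replicate 3). The calls over all genes moved too, among 15247 to 15259 genes tested. With UNC0642 they ran from 1109 to 2431, at 2026 without untreated replicate 1 and 1109 without UNC0642 replicate 3. With GSK-484 they ran from 924 to 3163. They were 924, 1526 and 2375 without untreated replicate 1, GSK-484 replicate 1 and GSK-484 replicate 2. A group left with 2 libraries was fitted with the spread shared over all groups. BIRC3 with TP-472 turned to 0.033 with the GC trend removed. With other treated groups as the reference XIAP turned to 0.0119 with GSK-591, 0.0389 with UNC0642 and 0.0711 with GSK-484, and BIRC2 to 0.0179 with UNC0642 and 0.0611 with GSK-484. With GC removal as well XIAP was 0.0383 with MS023, 0.0298 with GSK-591 and 0.0328 with GSK-484, and BIRC2 was 0.0248 with GSK-484. None of these turned values was called. The cause was not tested. TNFRSF10B with GSK-591 was not called with GC removal, without the low-count filter, in the fit of 2 groups alone or under total-count scaling. It was called in 4 of the 6 refits that each left out 1 library. FAS and TNFRSF10A, at 30 to 42 and 87 to 119 counts per JQ-1 library, carry the widest errors.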
